A study of Rattus norvegicus with 6 samples.

Results

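The opioid system of the injured rat sciatic nerve was described through 8 genes, the receptors Oprk1, Oprm1, Oprd1 and Oprl1 and the peptide precursors Penk, Pdyn, Pnoc and Pomc. They were taken by symbol from the 29884 genes of the deposited count table, and all 8 were found there. The set was put together with the difference between the groups in these same libraries in view, so that difference is given for the 8 genes as a description and no p-value is attached to it. Messenger RNA was sequenced from sciatic nerve of wild type rats of the CCI model (chronic constriction injury), a model of neuropathic pain made by tying loose ligatures round the nerve. The untreated group held 3 libraries from injured nerve alone. The conduit group held 3 libraries from nerve with the same injury treated with PLLA-PCL-RVC, a polymer nerve conduit that the series text calls piezoelectric and links to ropivacaine, a local anaesthetic. Strain, age, time after injury and the number of animals behind each library are not given in the sources used here, and neither uninjured nerve nor a conduit without drug was among the groups analysed here. Since separate animals are not stated, p-values measure only the spread between these samples, which may be technical.

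Opioid receptors are G protein-coupled receptors that act mainly through inhibitory G proteins, which lower cyclic AMP, open inwardly rectifying potassium channels and close voltage-gated calcium channels. Oprk1 encodes the kappa receptor, whose main ligands are dynorphins. Oprm1 and Oprd1 encode the mu and delta receptors, which respond to endorphin and enkephalins, and Oprl1 encodes the nociceptin receptor. Penk, Pdyn, Pnoc and Pomc encode the precursors of enkephalins, dynorphins, nociceptin and beta-endorphin, which convertases cut from longer proteins. In peripheral nerve, opioid receptors are best known from sensory neurons, whose cell bodies lie outside the nerve, and opioid peptides also from immune cells that enter injured tissue.

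Library totals ran from 38401951 to 42225086 counts. Of 15464 genes tested, 7760 were called different between the groups (50.2%), 3711 higher (24%) and 4049 lower (26.2%) in conduit nerves. The labels give 5 batch numbers, 2 in untreated and 3 in conduit libraries, and no batch holds both groups, so batch and treatment cannot be told apart and no within-batch value of the comparison can be had. All 7 Schwann cell markers read here were detected in every library, with Mbp and Prx the highest by the mean over all 6 libraries (in the untreated libraries S100b was above Prx). Skeletal muscle markers summed to 10340 CPM in 1 library, untreated replicate 1, against 3.11 to 74.6 CPM elsewhere. The summed adipocyte markers were 1419 CPM in conduit replicate 3 and 296 to 734 CPM in the others. CPM is the count relative to the TMM-scaled library total (trimmed mean of M-values).

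Of the 8 opioid genes, 3 passed the low-count filter (Oprk1, Penk and Pomc), and 5 did not (Oprm1, Oprd1, Oprl1, Pdyn and Pnoc). A gene that is high in 1 group only can pass through that group, so the 3 do not stand for the 8. Among those 3, edgeR called 1, Oprk1, beside 50.2% of all genes tested. The libraries of the groups did not overlap for 1 of the 3, again Oprk1, beside 61.7% of all genes tested. Since the set was chosen on this comparison, nothing is read from these counts.

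**Figure D1:**
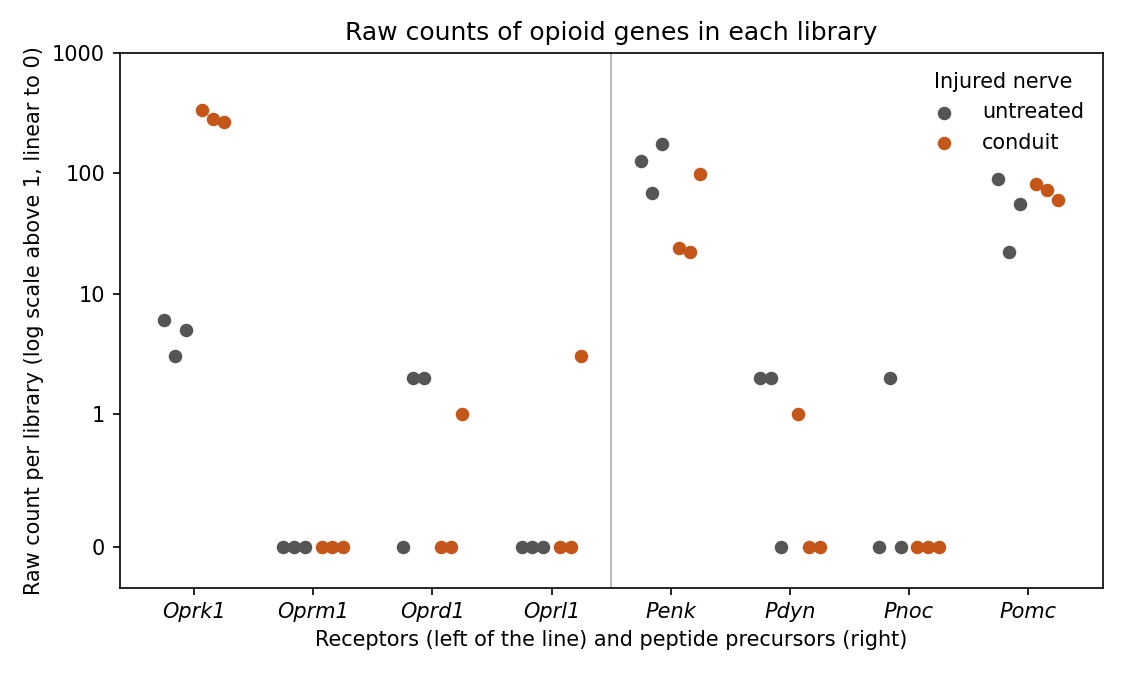
Raw counts of the 8 opioid genes in each library, with the 4 receptors on the left and the 4 precursors on the right. Each point is 1 library (grey untreated, orange conduit) on an axis that is logarithmic above 1 count. Oprk1 lies at 3 to 6 counts in untreated and 267 to 339 counts in conduit libraries, and 5 genes stay at 3 counts or fewer everywhere.

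Oprk1, the kappa receptor gene, was near zero in untreated nerves and readily counted in conduit nerves. Replicates 1, 2 and 3 had 6, 3 and 5 counts in the untreated group and 339, 283 and 267 counts in the conduit group. In CPM these were 0.130, 0.0606 and 0.115 against 9.32, 7.999 and 6.99. Every conduit library was far above every untreated library, and the 3 conduit libraries lay within 1.33 times of each other.

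The group means of Oprk1 were 0.102 ± 0.0365 CPM in untreated and 8.10 ± 1.17 CPM in conduit nerves (SD, n = 3), a ratio of 79.6. With the counts of each group pooled, 14 against 889, the ratio was 80.4, with a 95% counting interval from 47.7 to 148. Intervals of this kind cover counting error only and leave out variation between libraries. They also take each count as an independent molecule, which PCR copies are not. The log2 fold change was 6.28 ± 0.36 (SE), the 12th highest of the 15464 genes tested. Its low side rests on 14 counts, whose variance between libraries was 0.636 times that of counting error, while in the conduit libraries the variance was 6.26 times that of counting error. Leaving out single libraries moved the log2 fold change between 6.01 and 6.50.

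The other 3 receptors had next to no counts in either group. Oprm1, the mu receptor gene, had 0 counts in all 6 libraries. A count of 0 allows up to 3 counts, or 0.0216 CPM over the untreated and 0.0273 CPM over the conduit group, so a level below that was not detectable at this depth. Oprd1, the delta receptor gene, had 0, 2 and 2 counts in the untreated and 0, 0 and 1 counts in the conduit libraries. Its pooled ratio of conduit to untreated, from 1 and 4 counts, was 0.317, with a 95% counting interval from 0.00643 to 3.20 that spans both directions. Oprl1, the nociceptin receptor gene, had 0 counts in the untreated libraries and 0, 0 and 3 in the conduit libraries, too few for a ratio. All 3 of its counts were in conduit replicate 3.

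The precursor of the dynorphins, the ligands of the kappa receptor, was itself at the edge of detection. Pdyn had 2, 2 and 0 counts in untreated and 1, 0 and 0 counts in conduit libraries, with the same totals of 4 and 1 as Oprd1 and therefore the same ratio and interval. Pnoc, the nociceptin precursor, had 2 counts in untreated replicate 2 and 0 counts in the other 5 libraries, and no ratio is given. In conduit nerves Oprk1 thus had 889 counts, while Pdyn, with 1 count over the group, was at 0.00910 CPM.

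Penk, the enkephalin precursor, was counted in all 6 libraries and varied widely within both groups. Replicates 1, 2 and 3 had 126, 69 and 174 counts in the untreated group and 24, 22 and 98 counts in the conduit group. In CPM these were 2.73, 1.39 and 4.00 against 0.660, 0.622 and 2.57. Conduit replicates 1 and 2 were below all untreated libraries, whereas conduit replicate 3 was above untreated replicate 2, so the groups overlapped.

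The means of Penk were 2.71 ± 1.31 CPM in untreated and 1.28 ± 1.11 CPM in conduit nerves (SD, n = 3). Its log2 fold change was -1.07 ± 0.65 (SE). The variance within the groups was 29.8 times that of counting error in untreated and 35.3 times in conduit libraries, so depth is not what limits this comparison. The size of the difference moved with the libraries included, most of all with conduit replicate 3: the log2 fold change was -2.03 without it. The log2 fold change was -0.68 without untreated replicate 3, -0.75 without conduit replicate 1 and -0.73 without conduit replicate 2, and negative in all 11 alternatives that gave a value.

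Markers of fibroblasts and adipocytes also varied within both groups. The sum of the 8 fibroblast markers in replicates 1, 2 and 3 was 5566, 6589 and 10401 CPM without and 9244, 17649 and 18482 CPM with the conduit, with Col1a1 and Dcn the most abundant. As for Penk, replicate 3 had the highest sum of each group. Conduit replicate 2 was close to it, whereas for Penk conduit replicate 2 was about as low as conduit replicate 1. Single markers were highest in replicate 3 of both groups for 5 of the 8, and Dcn was highest in replicate 2 of both. Of the 8 markers Col1a1 and Col14a1 were called higher and Pdgfra lower in conduit nerves. The summed 5 adipocyte markers were 333, 513 and 734 CPM in untreated and 296, 363 and 1419 CPM in conduit replicates 1, 2 and 3, with Fabp4 and Adipoq the most abundant. A highest sum in replicate 3 of both groups was not particular to these lists. It was also seen for perineurial (532 and 2444 CPM), mast cell (137 and 275 CPM) and T cell markers (267 and 72.8 CPM). In the untreated group the mast cell, T cell and Schwann cell sums had the same order of libraries as Penk, which the fibroblast and adipocyte sums did not. Penk had 24 and 22 counts in conduit replicates 1 and 2, with 95% counting intervals of 15.4 to 35.7 and 13.8 to 33.3. The order of those 2 libraries is therefore not settled.

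Immune markers, which stand for another known source of opioid peptides, were mostly lower in conduit nerves in 4 lists, but not in the mast cell list. Called lower were 8 of 8 macrophage markers (summed 2456 to 3219 CPM against 411 to 709 CPM) and 4 of 6 neutrophil markers (51.5 to 106 CPM against 9.73 to 17.8 CPM). The same held for 5 of 7 T cell markers (179.8 to 267 CPM against 38.3 to 72.8 CPM) and 2 of 6 B and plasma cell markers (5.99 to 10.3 CPM against 1.26 to 3.08 CPM). Of the last 2 lists, 6 and 3 markers were tested, and 26.2% of all genes tested were called lower. The T cell sum was mostly Cd4 and Cd8a (untreated means of 150 and 68.8 CPM), with Cd3e, Cd3d, Cd3g and Cd2 at 1.29 to 3.18 CPM. Of 6 mast cell markers 1 was called higher and 0 lower (87.5 to 137 CPM against 105 to 275 CPM). No marker matched in the fibroblast list or these immune lists was at 0 in all libraries, and 1 T cell symbol, Trac, had no match. The part of any of these cells in the Penk values was not tested. In bulk tissue, fewer cells of a type and less RNA per cell cannot be told apart.

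**Figure D2:**
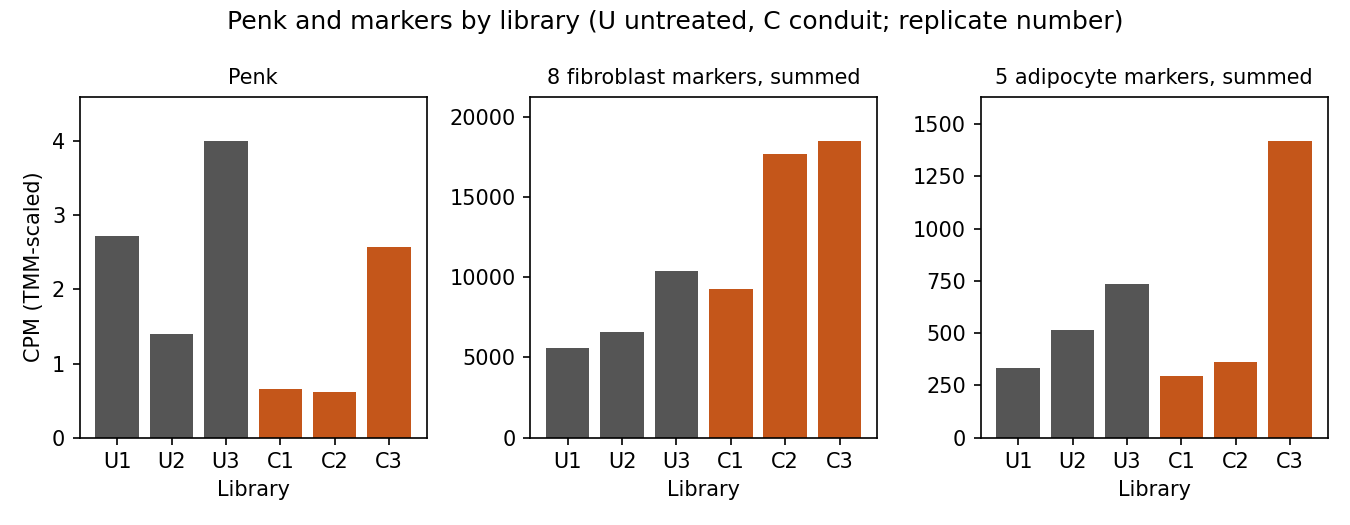
Penk and the sums of 8 fibroblast and of 5 adipocyte markers, in TMM-scaled CPM (each panel with its own axis from 0) for untreated (U, grey) and conduit (C, orange) replicates 1 to 3. Replicate 3 is the highest bar of its group in every panel, at 4.00 and 2.57 CPM for Penk. The same holds for the summed perineurial, mast cell and T cell markers, which are not drawn.

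Pomc, the precursor of beta-endorphin, of adrenocorticotropin and of the melanocortins, was present at a low and overlapping level in both groups. It had 90, 22 and 56 counts in untreated and 82, 73 and 60 counts in conduit replicates 1, 2 and 3. In CPM these were 1.95, 0.444 and 1.29 against 2.25, 2.06 and 1.57. The lowest library was untreated replicate 2, and untreated replicate 1 lay within the range of the conduit libraries.

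The means of Pomc were 1.23 ± 0.754 CPM in untreated and 1.96 ± 0.352 CPM in conduit nerves (SD, n = 3), with a log2 fold change of 0.68 ± 0.52 (SE). Untreated replicate 2 carries much of that value, which was 0.28 without it, and 1.18 without untreated replicate 1. With library totals in place of TMM scaling it was 0.30. In RefSeq's gene table for GRCr8, which is not the build of these counts, Pomc overlaps Efr3b. Efr3b was more abundant, at 34.6 to 35.9 CPM in untreated and 88.2 to 105.9 CPM in conduit libraries. The labels do not state whether strand was kept, so reads of Pomc and Efr3b may not have been told apart, and the Pomc values are uncertain to that extent. In the same table Oprm1 overlaps Ipcef1 and Pdyn overlaps an uncharacterised long noncoding RNA gene.

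Levels were compared between genes on the deposited FPKM scale, which divides counts by gene length and library total. In untreated nerves Penk (1.87 ± 0.877 FPKM) and Pomc (1.44 ± 0.856 FPKM) came first, and their ranges overlapped. Oprd1 (0.0235 FPKM) and Oprk1 (0.0232 FPKM) followed with overlapping libraries, then Pdyn (0.0117 FPKM) and Pnoc (0.0108 FPKM), with Oprl1 and Oprm1 at 0. In conduit nerves the order was Pomc (1.78 ± 0.280 FPKM), Oprk1 (1.42 ± 0.182 FPKM) and Penk (0.694 ± 0.621 FPKM). Pomc was above Oprk1 in each conduit library, at 2.03 against 1.62, 1.82 against 1.37 and 1.47 against 1.27 FPKM, although the ranges overlap across libraries. Penk was below Oprk1 in conduit replicates 1 and 2 (0.348 and 0.322 FPKM) and above it in conduit replicate 3 (1.41 FPKM). The remaining genes were at or under 0.00557 FPKM.

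Against the 22050 genes with at least 1 count in the table, the mean FPKM of Oprk1 stood at the 19.5th percentile in untreated and at the 52.0th percentile in conduit nerves. Penk stood at 50.9 and 45.6, and Pomc at 48.5 and 54.4. Oprk1 thus went from the level of barely counted genes to the middle of the table, while both precursors were near the middle in each group.

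**Figure D3:**
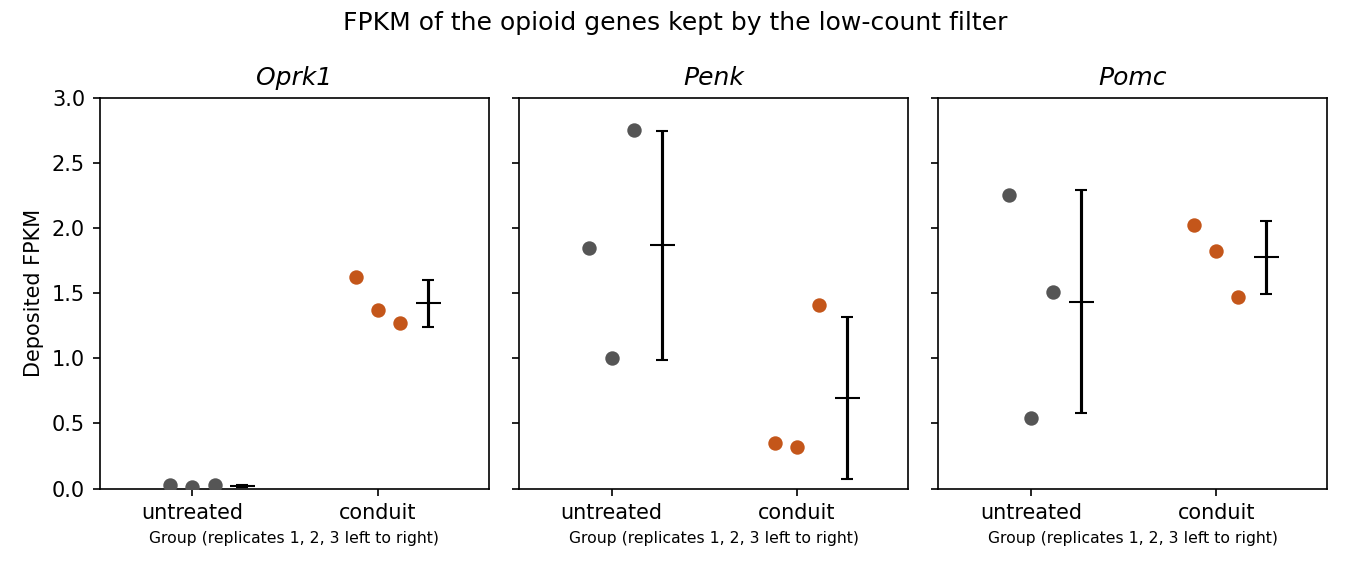
Deposited FPKM of Oprk1, Penk and Pomc, the 3 opioid genes that passed the low-count filter. Points are libraries (replicates 1, 2 and 3 from left to right), and the black bar beside them gives the mean and SD of 3 libraries. Oprk1 is close to 0 in untreated and at 1.27 to 1.62 FPKM in conduit libraries, whereas the groups overlap for Penk and Pomc.

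Markers of the cells of a nerve were set beside Oprk1. All 7 Schwann cell markers were called higher in conduit nerves, beside 24% of all genes tested, with log2 fold changes from 0.49 to 3.73. Their sum was 3810 to 5455 CPM in untreated and 32483 to 41330 CPM in conduit libraries. Of 6 perineurial markers 4 were tested, and all 4 were called higher (333 to 532 CPM against 2025 to 2444 CPM for the sum of the 6). Moxd1 and Lypd2 were not tested, and Lypd2 was at 0 in all libraries. Of 10 markers of neuronal cell bodies 6 were tested and 2 were called higher, Snap25 and Scn9a. The sum of the 10, mostly Tubb3 and Prph, was 28.2 to 48.6 CPM in untreated and 43.0 to 53.3 CPM in conduit libraries. The highest library was at 34.7 CPM for Tubb3, 13.4 CPM for Prph, 6.02 CPM for Scn9a, 1.87 CPM for Snap25 and 1.06 CPM for Avil. It was at 0.584 CPM for Isl1, 0.481 CPM for Rbfox3, 0.424 CPM for Elavl4, 0.157 CPM for Elavl3 and 0.115 CPM for Scn10a, a sodium channel gene of sensory neurons. The part of these cells in the Oprk1 values was not tested.

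Endothelial markers (1 of 6 higher, 3 lower, summed 796 to 942 CPM against 648 to 752 CPM) and mural cell markers (1 of 6 higher, 858 to 1288 CPM against 953 to 1265 CPM) showed smaller or mixed differences. So did mast cell markers (1 of 6 higher, 87.5 to 137 CPM against 105 to 275 CPM). Of 5 adipocyte markers 2 were called higher, both without overlap. These were Lep (0.285 ± 0.0932 against 5.35 ± 3.38 CPM, log2 fold change 4.21) and Cidec (15.5 ± 14.4 against 105 ± 107 CPM, log2 fold change 2.76). Adipoq, Plin1 and Fabp4 overlapped and were not called. The 4 markers of dividing cells were all called lower (172 to 219 CPM against 7.35 to 15.3 CPM).

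The genes whose pattern over the 6 libraries was most like that of each opioid gene were found by Pearson's r of log2 CPM. For Oprk1 they were Lrrtm4 (r = 0.9997), Mboat2 (r = 0.9995) and Rimkla (r = 0.9995), with 1848 genes above 0.95. That number was not set against those of other genes without overlap between the groups, which were 61.7% of all genes tested. For Penk they were Fcrla (0.993), Nit2 (0.993) and Coro2b (0.992), with 30 genes above 0.95, and for Pomc they were Rab40c (0.995), Aamdc (0.992) and Comtd1 (0.991), with 97. With 6 libraries in 2 groups these values describe likeness only.

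The genes that make, cut, receive and transmit opioid peptides were then counted in 6 lists. Of 91 genes 83 were tested, and 27 were called higher and 27 lower in conduit nerves, 65.1% of those tested beside 50.2% of all genes. The median log2 fold change was 0.13 over the lists and -0.04 over all genes tested. No list was tested as a set, so the counts by list below are descriptions. With library totals alone all genes tested were lower by a median of 0.39 on the log2 scale than with TMM. Values below are log2 fold changes ± SE from edgeR with Benjamini-Hochberg adjusted p-values over all genes tested.

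Genes of peptide processing moved in both directions, with opposite changes in the main neuroendocrine convertases. Of 14 tested, 6 rose and 4 fell (71.4% called, beside 50.2% of all genes tested), with a median of 0.81. Pcsk1, prohormone convertase 1, was at 29.7, 53.2 and 34.3 CPM in untreated and at 1.92, 2.23 and 1.62 CPM in conduit replicates 1, 2 and 3 (-4.34 ± 0.28, adjusted p = 7.97e-05), with no overlap. Pcsk2, prohormone convertase 2, had 2, 0 and 6 counts in untreated and 34, 16 and 23 counts in conduit libraries (3.43 ± 0.86, adjusted p = 0.0135). With untreated replicate 3 left out it was at 4.79, and with untreated replicate 2 left out at 2.84.

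Of the other processing genes, the convertases Pcsk4 (1.82 ± 0.29) and Pcsk6 (1.71 ± 0.18) rose, as did Pcsk1n, the precursor of a convertase inhibitor (1.56 ± 0.25), and Pam, which amidates peptide ends (1.42 ± 0.17). Cpe, the carboxypeptidase that trims cut peptides, rose from 115 ± 8.76 to 173 ± 5.74 CPM (0.59 ± 0.12), but did not pass with library totals (0.20, adjusted p = 0.202). Besides Pcsk1, Prcp (-1.72 ± 0.18), a carboxypeptidase that acts on melanocortin peptides, the lysosomal protease Ctsl (-1.57 ± 0.20) and the convertase Furin (-1.03 ± 0.16) fell. Pcsk5, Cpd, Scg5 and Qpct did not pass. With DESeq2, 10 genes of this list were higher.

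Enzymes that break down opioid peptides also split, and the best known enkephalin-degrading peptidases went opposite ways. Of 13 tested, 4 rose and 5 fell (69.2% called, beside 50.2% of all genes tested), with a median of -0.26. Mme, neprilysin, was at 24.0, 24.1 and 23.6 CPM in untreated and at 126, 97.6 and 74.8 CPM in conduit replicates 1, 2 and 3 (2.06 ± 0.20, adjusted p = 0.000207). Anpep, aminopeptidase N, was at 120, 120 and 138 CPM against 19.96, 36.7 and 48.5 CPM (-1.85 ± 0.30, adjusted p = 0.00200). Neither gene overlapped between the groups. Ece2 (1.82 ± 0.27), an endothelin-converting enzyme, and Prep (1.00 ± 0.14), prolyl endopeptidase, rose. Nln, neurolysin (-0.83 ± 0.11), Dpp3, a dipeptidyl peptidase (-0.61 ± 0.12), and Thop1, thimet oligopeptidase (-0.54 ± 0.12), fell.

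Calls of 2 breakdown genes were lost when some single libraries were left out. With fewer libraries to test, such a loss does not show that the call rests on the library left out. Lnpep, an aminopeptidase (0.45 ± 0.15), lost its call when untreated replicate 1 (adjusted p = 0.114) or 3 (0.0800) was left out, likewise conduit replicate 2 (0.105) or 3 (0.101), with library totals (0.783) and with no low-count filter (0.0504). Ide, insulin-degrading enzyme (-0.38 ± 0.12), lost its call when untreated replicate 2 (adjusted p = 0.0563), untreated replicate 3 (0.0633), conduit replicate 1 (0.133) or conduit replicate 2 (0.129) was left out, and with no filter (0.0517). With library totals 8 genes of this list were lower.

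Among inhibitory G proteins and their effectors, the alpha subunits Gnai1, Gnao1 and Gnaz rose in conduit nerves. Of 19 tested, 8 rose and 5 fell (68.4% called, beside 50.2% of all genes tested), with a median of 0.45. Gnai1 rose from 37.0 ± 7.28 to 142 ± 13.7 CPM (1.94 ± 0.17, adjusted p = 0.000166) and Gnaz from 0.892 ± 0.361 to 3.34 ± 0.487 CPM (1.90 ± 0.38, adjusted p = 0.00514), and Gnao1, chosen after its values were seen, was at 1.86 ± 0.14. Gnai2, the most abundant of them at 366 FPKM in untreated nerves, was at -0.21 ± 0.12 and Gnai3 at 0.13 ± 0.16, and neither passed.

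The adenylyl cyclases, whose activity inhibitory G proteins lower, moved apart. Of 9 tested, 4 rose and 3 fell, beside 24% higher and 26.2% lower among all genes tested. Adcy1 rose from 2.49 ± 0.932 to 16.7 ± 0.954 CPM (2.75 ± 0.29, adjusted p = 0.000312), while Adcy7 fell from 16.7 ± 5.73 to 2.00 ± 1.22 CPM (-3.06 ± 0.49, adjusted p = 0.00192). Adcy8 (1.55 ± 0.31), Adcy6 (1.25 ± 0.15) and Adcy5 (1.01 ± 0.25) rose too, the last losing its call with library totals (adjusted p = 0.0793), and Adcy4 (-0.79 ± 0.18) fell. Adcy2 (-1.09 ± 0.36) lost its call when untreated replicate 1 (adjusted p = 0.103), untreated replicate 3 (0.109), conduit replicate 1 (0.117), conduit replicate 2 (0.0873) or conduit replicate 3 (0.0738) was left out. Gnb2 (-0.51 ± 0.12), a beta subunit, lost it when conduit replicate 2 (0.0585) or conduit replicate 3 (0.0572) was left out. The list had 3 genes lower in each of the latter settings and with the filter of 5 CPM in 3 libraries.

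Of the channels that opioid receptors act on, Cacna1b, the N-type calcium channel, fell from 3.60 ± 0.694 to 0.548 ± 0.0918 CPM (-2.71 ± 0.33, adjusted p = 0.000554), and Cacna1a, the P/Q-type channel, was at 0.45 ± 0.18 and did not pass. The genes of the G protein-gated potassium channels were nearly silent in this tissue. Kcnj3 had 0 counts in all libraries, and Kcnj5, Kcnj6 and Kcnj9 had group means of 0.143 CPM or less, so none of the 4 was tested.

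Genes of receptor desensitisation and trafficking were mixed. Of 21 tested, 6 rose and 8 fell (66.7% called, beside 50.2% of all genes tested), with a median of -0.32. The trafficking genes Gprasp1 (1.34 ± 0.15), Gprasp2 (1.06 ± 0.30) and Nherf1 (0.76 ± 0.12) rose, and Rtp4 (-0.88 ± 0.31) fell. Gprasp2 lost its call in 2 and Rtp4 in 6 of 12 alternatives. The receptor kinases Grk2 (-0.69 ± 0.12) and Grk6 (-1.35 ± 0.13) fell. Arrb2, beta-arrestin 2, which binds phosphorylated receptors, fell from 46.7 ± 10.7 to 13.7 ± 0.457 CPM (-1.76 ± 0.18, adjusted p = 0.000311), whereas Arrb1 was at -0.15 ± 0.13 and did not pass. Rgs16 fell from 183 ± 65.1 to 17.6 ± 8.91 CPM (-3.37 ± 0.44, adjusted p = 0.000755) and Rgs14 from 9.61 ± 0.490 to 1.56 ± 0.920 CPM (-2.62 ± 0.40, adjusted p = 0.00160). Both are RGS proteins, which speed the switching off of G proteins. Rgs19 (-1.70 ± 0.13) and Rgs10 (-1.32 ± 0.25) fell as well.

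The RGS genes that rose were low. Rgs17 was at 2.06 ± 0.0933 and 6.75 ± 3.12 CPM (1.71 ± 0.35, adjusted p = 0.00548). Rgs20 was at 0.183 ± 0.0880 and 1.05 ± 0.763 CPM (2.52 ± 0.67). Its call was lost when untreated replicate 2 (adjusted p = 0.0510) or conduit replicate 3 (1.81, adjusted p = 0.0582) was left out. Rgs7 was at 0.229 ± 0.0339 and 1.19 ± 0.937 CPM (2.36 ± 0.70). Its call was lost when untreated replicate 1 (adjusted p = 0.0706), untreated replicate 2 (0.0563), untreated replicate 3 (0.0660), conduit replicate 1 (0.0522) or conduit replicate 3 (1.62, adjusted p = 0.0892) was left out. The list had 3 genes higher without conduit replicate 3 and with the filter of 5 CPM in 3 libraries.

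The list of other receptors for products of these precursors held the melanocortin receptors of Pomc peptides, with their accessory proteins, and 2 further opioid-binding proteins. Of 6 tested, 2 rose and 2 fell (66.7% called, beside 50.2% of all genes tested), with a median of 0.94. Mrap2, a melanocortin receptor accessory protein, was at 3.70, 1.43 and 2.14 CPM in untreated and 0.110, 0.0283 and 0.0262 CPM in conduit replicates 1, 2 and 3 (-5.40 ± 0.68, adjusted p = 0.000662). It rests on 6 conduit counts and was at -6.31 without conduit replicate 1. Mrap, its relative that carries the adrenocorticotropin receptor to the cell surface, went from 18.3 ± 9.12 to 177 ± 107 CPM (3.27 ± 0.56, adjusted p = 0.00267). Mc2r, the gene of that receptor, did not pass and had 15.9 CPM in conduit replicate 3, the library with the highest adipocyte markers, and 0.714 to 2.76 CPM in the other libraries. Mrap went the other way among the conduit libraries, at 299, 132 and 100 CPM in replicates 1, 2 and 3.

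Mc5r, another melanocortin receptor, had 8, 0 and 2 counts in untreated and 25, 13 and 42 counts in conduit libraries (3.26 ± 0.94, adjusted p = 0.0226). With untreated replicate 1 left out it was at 4.86, and with untreated replicate 2 left out at 2.67. Its call was lost when conduit replicate 1 (adjusted p = 0.0525) or 3 (0.0698) was left out, likewise untreated replicate 3 (0.0695), and 1 gene of the list was then higher. With the filter of 5 CPM in 3 libraries 1 gene was higher and 1 lower. Ogfr, which binds Met-enkephalin as the opioid growth factor receptor, fell from 73.0 ± 11.3 to 47.5 ± 0.502 CPM (-0.62 ± 0.14, adjusted p = 0.00844). Ackr3, a scavenger of chemokines and opioid peptides, was at 0.15 ± 0.27 and did not pass.

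Of 10 transcription regulators linked to opioid genes, 1 rose and 3 fell, with a median of -0.10. That is 40% beside 50.2% of all genes, too near the background for a result about the list. Rest, a repressor of neuronal genes including Oprm1, was at 0.06 ± 0.16, Creb1, an activator of Penk, at -0.01 ± 0.22, and Kcnip3, a repressor of Pdyn that calcium releases from DNA, at -0.20 ± 0.28, and none of them passed. Ikzf1, a regulator of lymphoid cells, fell (-2.10 ± 0.52, or -2.71 without conduit replicate 3, adjusted p = 0.0125 with all libraries), as did Atf1 (-0.68 ± 0.12, adjusted p = 0.00329).

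The remaining calls of that list were lost in several alternatives. Leaving out a library also leaves fewer libraries to test, so these losses do not show that a call rests on the library left out. Crem (-0.37 ± 0.12, adjusted p = 0.0386) lost its call whichever library was left out (adjusted p = 0.0597, 0.0705 and 0.0566 for untreated replicates 1, 2 and 3, and 0.0801, 0.167 and 0.168 for the conduit replicates), with DESeq2 (0.0642), with RLE scaling (0.0552) and with no filter (0.0672). Nr3c1, the glucocorticoid receptor (0.56 ± 0.20, adjusted p = 0.0470), lost its call when untreated replicate 1 (adjusted p = 0.124), untreated replicate 3 (0.118), conduit replicate 1 (0.0704), conduit replicate 2 (0.0703) or conduit replicate 3 (0.125) was left out, with library totals (0.518) and with no filter (0.0526). In this list 0 genes were higher with library totals, with no filter or when untreated replicate 1 or 3 or any conduit replicate was left out, and 2 when untreated replicate 2 was left out.

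**Figure D4:**
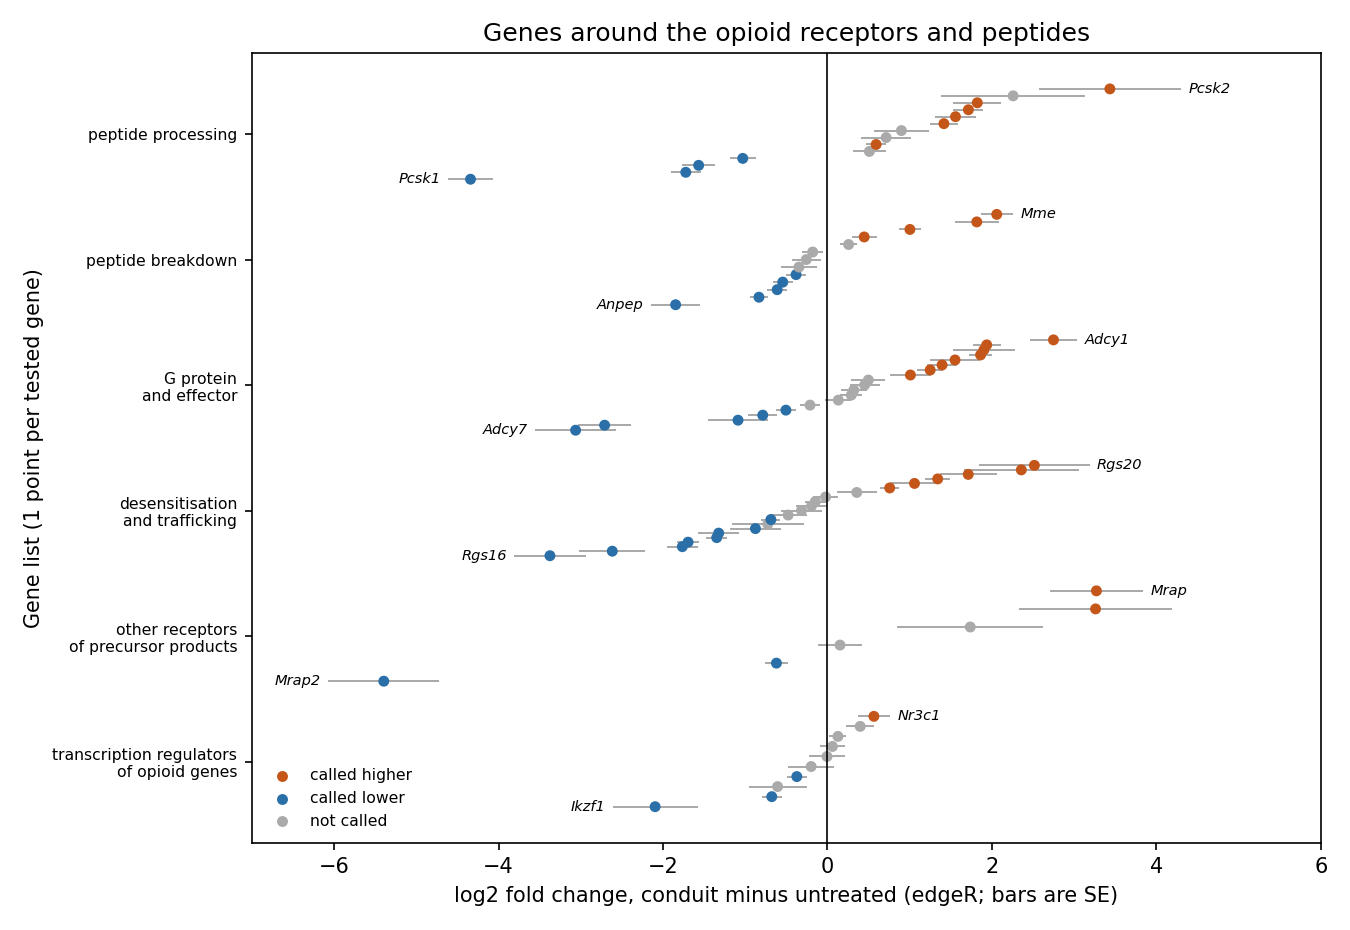
Log2 fold changes (conduit minus untreated, edgeR) of the 83 tested genes in the 6 lists, 1 point per gene with its SE, coloured by call (orange higher, blue lower, grey not called). The lowest and highest gene of each list are labelled. Every list holds genes on both sides of 0, from Mrap2 at -5.40 to Pcsk2 at 3.43.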

How the data were processed

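The authors deposited raw counts per gene and FPKM per library for 6 libraries, 3 untreated and 3 conduit. The tools HTSeq, HISAT2, fastp and DESeq2 and the build mRatBN7.2 are named per the submitters' processing notes, and versions are not given in the sources used here. The deposited FPKM carry no information beyond counts and gene length: 1 length per gene explained them in all 20504 genes with FPKM above 0 in several libraries, within a relative tolerance of 0.0001. No row lacked a gene name.

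The members and lists were chosen with earlier results of these data known. Tests used edgeR 4.0.16 in R 4.3.3 (quasi-likelihood F test, two-sided, TMM, group alone, filterByExpr with a minimum count of 10), Benjamini-Hochberg adjusted over 15464 genes and called under 0.05. SE was taken as the absolute log2 fold change over the root of the F value. Ratios of low counts carry exact conditional binomial 95% intervals. Likeness used log2 CPM with a prior count of 2.

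Named genes were the 8 members, up to 3 called genes without overlap in each direction of each list, 3 genes most like each member with at least 1 CPM, and the 2 most abundant markers of a list, printed for some lists. Other named genes were chosen after their values were seen. Some genes of the lists are not reported here and enter no list count or sum. Older symbols were matched through the GRCr8 RefSeq table, and no coordinates are given. The 12 alternatives were scaling by RLE or by library totals, DESeq2 1.42.0, no filter, 5 CPM in 3 libraries, a replicate block and each library left out.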

Additional observations from a re-analysis of the deposited data

How the results depend on the processing

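Oprk1 stayed between 5.90 (library totals) and 6.50 on the log2 scale over 12 alternatives, Penk between -2.03 and -0.68 and Pomc between 0.28 and 1.18 over 11 each, since neither gene passed the filter of 5 CPM in 3 libraries. With library totals alone 2291 genes were called higher and 6554 lower, so 25.9% of called genes were higher, beside 47.8% with TMM. Over all 6 lists, leaving out single libraries gave 21 to 31 genes higher and 22 to 25 lower. Of 638 values of the 54 called list genes under alternatives, 59 lost the call, in 13 genes, and 0 changed direction. Deviations from the group means correlated at 0.14, -0.03 and 0.06 for same-numbered libraries, and at -0.15 to 0.10 for differently numbered ones. Such deviations, taken from means of 3 libraries, cannot settle whether replicate numbers pair the libraries. With the replicate block Oprk1 was at 6.29, Penk at -1.26 and Pomc at 0.85, 10 processing genes were higher, and Ide, Adcy2, Rgs7, Crem and Nr3c1 did not pass (adjusted p = 0.0503, 0.0707, 0.0609, 0.0672 and 0.0538). Depth limits Oprm1, Oprd1, Oprl1, Pdyn and Pnoc, which stay at 4 counts or fewer in a group.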

Other observations

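Genes next to the opioid genes were listed from the RefSeq gene table of GRCr8, after the values of the opioid genes were seen, to describe each locus. Npbwr1, a neuropeptide receptor gene on one side of Oprk1, had 0 counts in all 6 libraries. Atp6v1h, a proton pump subunit gene on the other side, was at 37.3 to 48.8 CPM in untreated and 31.1 to 32.3 CPM in conduit libraries, the direction opposite to that of Oprk1. Around Penk, Sdr16c6 had 1 count in all. Beside the nearly silent Pdyn, Sirpa, a macrophage receptor gene, was at 119 to 130 CPM in untreated and 66.2 to 87.3 CPM in conduit libraries. Beside Pnoc, Elp3 and Zfp395 were at means of 62.7 and 28.7 CPM in untreated and 89.96 and 38.3 CPM in conduit nerves. Ipcef1, which overlaps Oprm1 in that table, was counted at 2.16 to 2.63 CPM in untreated and 0.565 to 1.10 CPM in conduit libraries while Oprm1 had 0 counts.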
